A study of Rattus norvegicus with 8 samples.

Results

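The genes described here encode receptors for growth factors, 2 of their ligands, an inhibitor and a related kinase: Gfra1, Ptprz1, Ptn, Efna1, Ephb3, Egfr, Errfi1, Pdgfra, Fgfr1 and Aatk. All probe sets annotated to these 10 genes were taken, 20 of the 8740 that were not controls, and 18 of them had enough signal to be tested among 6684. RNA came from the rat glioma line C6, a cell line with glial features, on 8 oligonucleotide arrays whose labels name migration as the subject. The arrays formed 4 groups of 2, named from their titles: C6SPGFP fast, C6SPGFP slow, C6 fast and C6 slow. The titles of all 4 groups name C6. The labels do not say what C6SPGFP stands for, how fast cells were told from slow ones, or if the 2 arrays of a group came from different cultures. The p-values therefore reflect array-to-array spread that may be technical, and 2 arrays per group limit the precision of every value.

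Growth factor receptors carry signals from secreted or membrane-bound ligands into the cell, and in glia they steer survival, division and movement. GFRα1, the product of Gfra1, is anchored in the outer membrane without a cytoplasmic part. It binds glial cell line-derived neurotrophic factor (GDNF) and hands it to the kinase Ret or to the adhesion molecule NCAM. PTPRZ1 is a receptor tyrosine phosphatase of glial progenitors, and pleiotrophin, the product of Ptn, binds it and lowers its activity. Ephrins are ligands fixed to the membrane whose Eph receptors on neighbouring cells mediate contact repulsion. PDGFRα is the receptor that keeps oligodendrocyte progenitors dividing, and Errfi1 encodes a cytoplasmic inhibitor of the EGF receptor.

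No probe sequences are used here, so the sequences shown are promoter regions, from 250 bases before to 50 bases after the RefSeq gene start (build GRCr8). RefSeq promoters were matched for 8 of the 10 genes, not for Ptprz1 and Fgfr1. Gfra1 (chr1:267555762-267556061, minus strand) and Aatk (chr10:105825569-105825868, minus strand) are shown because both were lowest in C6 fast cells. Efna1 (chr2:176986772-176987071, minus strand) is shown because it was highest there. Each is printed 5′ to 3′ in the direction of the gene, and capitals mark the GC box letters GGGCGG and the letters ACAAAG or ACAATG of SOX factor motifs, on either strand. GC box matches in the Efna1 promoter overlap each other in part, and no GC box match overlaps a SOX match.
Gfra1: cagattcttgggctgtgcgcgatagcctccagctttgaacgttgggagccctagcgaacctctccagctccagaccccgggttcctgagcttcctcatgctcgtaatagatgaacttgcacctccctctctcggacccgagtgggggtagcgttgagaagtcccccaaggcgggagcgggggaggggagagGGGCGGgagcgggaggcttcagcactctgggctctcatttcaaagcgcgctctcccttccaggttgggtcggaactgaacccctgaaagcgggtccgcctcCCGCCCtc
Aatk: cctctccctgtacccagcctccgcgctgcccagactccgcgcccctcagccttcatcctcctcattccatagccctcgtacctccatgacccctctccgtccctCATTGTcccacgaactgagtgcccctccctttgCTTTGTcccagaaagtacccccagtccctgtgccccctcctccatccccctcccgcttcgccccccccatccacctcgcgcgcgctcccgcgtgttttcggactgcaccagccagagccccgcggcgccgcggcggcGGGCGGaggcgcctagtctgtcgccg
Efna1: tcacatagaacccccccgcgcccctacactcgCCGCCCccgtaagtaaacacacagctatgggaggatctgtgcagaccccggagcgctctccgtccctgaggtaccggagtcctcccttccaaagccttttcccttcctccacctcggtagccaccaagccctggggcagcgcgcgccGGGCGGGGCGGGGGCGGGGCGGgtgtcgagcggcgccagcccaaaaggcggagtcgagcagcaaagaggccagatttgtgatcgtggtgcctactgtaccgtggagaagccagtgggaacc
The GC box letters were found in 7 of the 8 promoters, against 33.1% of 33469 rat promoters of the same length. The Efna1 promoter held 5 matches, the Gfra1 promoter 2 and the Aatk promoter 1. SOX letters were found in 2 of the 8 promoters, those of Aatk and Ptn, against 29.1% of all promoters. In Aatk they began 146 and 113 bases before the gene start. The GC content was 63% in Gfra1, 69% in Aatk and 66% in Efna1, against a median of 51.7% over all promoters. These matches describe the letters in the windows shown and are not evidence of a factor's binding.

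The deposited signal of C6SPGFP fast replicate 1 lay on another scale, with a 2% trimmed mean of 500.5 against 100.1 to 105.8 on the other 7 arrays, so the arrays were quantile normalised and signals below are normalised intensities. Changes are log2 differences of signal plus a pseudocount of 8, which understates the change of dim probe sets, and folds are those of signal plus pseudocount. A change was called at a limma adjusted p under 0.05 over all probe sets tested. Signals of different genes come from different probes and are not compared with each other. The vimentin transcript Vim, typical of C6 cells, was high in every group, with means from 2658 to 3716, and Nes, the progenitor filament nestin, averaged 771 and 992 in C6SPGFP fast and slow cells and 235 and 933 in C6 fast and slow cells. No probe set carried the name Gfap.

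Aatk, Gfra1 and Ptprz1 (on its brighter probe set) were far lower in fast than in slow C6 cells, and Efna1 rose there. In the C6SPGFP set none of these 4 genes had a called change between fast and slow cells. In C6, 6 of the 18 tested probe sets were called in fast against slow cells, 2 higher and 4 lower (33.3%), against 6.66% of all probe sets tested (2.69% higher and 3.96% lower). They covered 4 genes. The genes were chosen with earlier results of these data known, so such shares are no test of them as a group. In C6SPGFP 1 of 18 was called (5.56%), lower, against 1.39% of all probe sets (1.06% higher and 0.329% lower), and none was higher, although 3 had an unadjusted limma p under 0.05 with a positive change. The median change of the 18 was 0.11 in C6 and 0.20 in C6SPGFP, against 0.01 and -0.02 over all probe sets. The test of whether the fast against slow change differed between C6SPGFP and C6 called 6 of 18 probe sets, again 4 genes, against 3.82% of all probe sets. Of these 6, 4 were higher and 2 lower, against 2.71% and 1.11% of all. With the deposited scaling kept, which left C6SPGFP fast replicate 1 on its own scale, the count was 1 in C6, 0 in C6SPGFP and 1 for the difference. With the arrays set to a common trimmed mean it was 6, 0 and 6. Over all 5 comparisons 7 of 29 calls on these probe sets were kept under every alternative tried. Most of the others were lost under the deposited scaling alone.

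**Figure D1:**
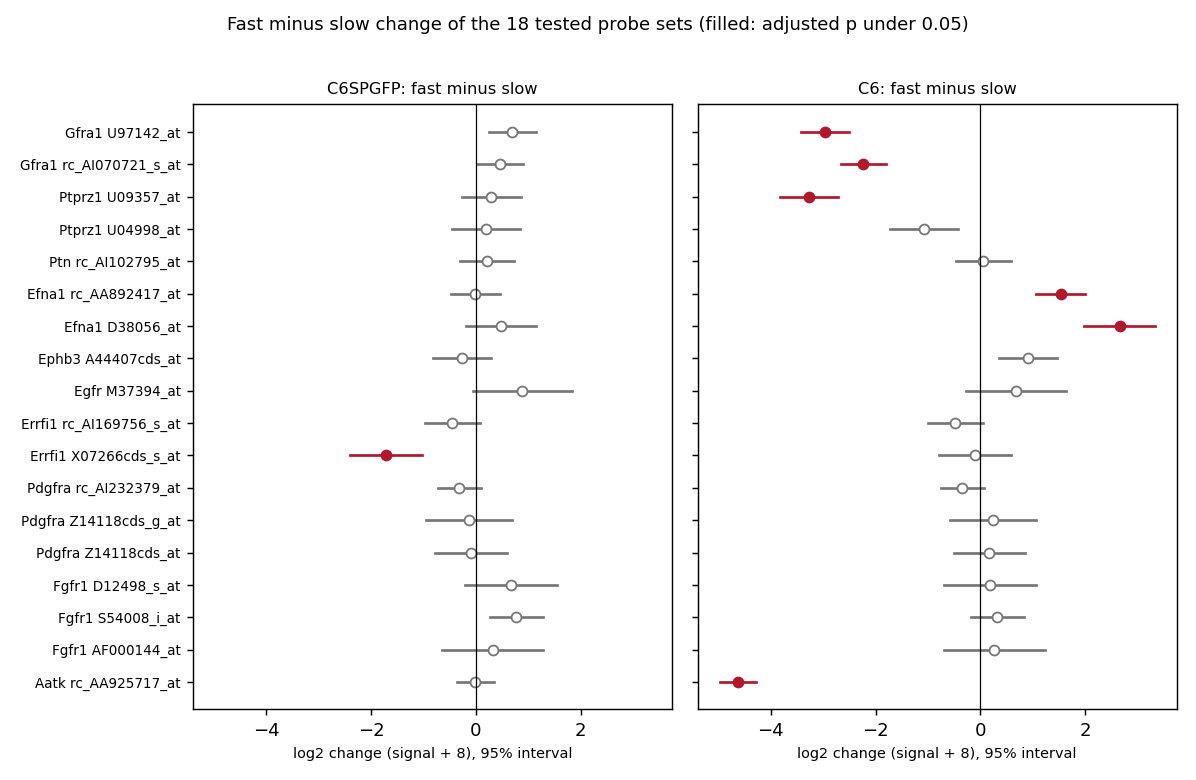
Change from slow to fast cells (horizontal axis, log2 of signal plus 8) of the 18 tested probe sets, in C6SPGFP on the left and C6 on the right. Points are limma estimates, lines their 95% intervals, and filled red points have an adjusted p under 0.05. Aatk, Gfra1 and Ptprz1 on U09357_at lie far below 0 in C6 and near or above 0 in C6SPGFP, and Efna1 lies above 0 in C6. Ptprz1 on U04998_at lies at -1.08 in C6 with an open point.

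Gfra1, the co-receptor for GDNF, was measured by 2 probe sets that gave the same order of groups. The first (U97142_at) had signals of 618 and 652 in C6SPGFP fast and 378 and 399.6 in C6SPGFP slow cells, against 11.65 and 19.5 in C6 fast and 181 and 165 in C6 slow cells. The 4 groups did not overlap. In fast against slow C6 cells it fell by 2.96 ± 0.20 (SE) on the log2 scale, 7.79-fold (adjusted p = 6.93e-05), and its change was -3.35 and -2.11 with pseudocounts of 2 and 32. In C6SPGFP the fast cells were at 0.70 ± 0.20 above the slow cells, which did not pass (adjusted p = 0.215, 95% interval 0.24 to 1.15). The second probe set (rc_AI070721_s_at) had 340.05 and 317 in C6SPGFP fast, 211 and 264 in C6SPGFP slow, 20.9 and 16.5 in C6 fast and 116.5 and 117.2 in C6 slow cells. It fell by 2.23 ± 0.19 in fast C6 cells (adjusted p = 0.000235) and stood at 0.46 ± 0.19 in fast C6SPGFP cells (adjusted p = 0.476). The 2 changes of Gfra1 differed between the sets by 3.66 ± 0.28 and 2.69 ± 0.27 (C6SPGFP minus C6, adjusted p = 0.00022 and 0.000909).

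Of the other genes of GDNF signalling, 5 were tested, each by its probe set with the highest mean signal, and none passed in fast against slow C6 cells. None of the 5 had an unadjusted p under 0.05 there in either direction (limma). Gdnf, the ligand, averaged 27.4 ± 11.5 in C6SPGFP fast, 24.0 ± 13.0 in C6SPGFP slow, 29.7 ± 9.08 in C6 fast and 35.2 ± 9.67 in C6 slow cells (SD, n = 2). Ret, the signalling kinase, averaged 55.8 ± 0.371, 48.2 ± 4.56, 46.4 ± 8.80 and 44.5 ± 7.80 in the same order. No contrast of Gdnf or Ret passed, with adjusted p of at least 0.519. Ncam1, the adhesion molecule that can act in place of Ret, had 386 and 352 in C6SPGFP fast and 659 and 644 in C6SPGFP slow cells, against 245 and 247 in C6 fast and 299 and 289.6 in C6 slow cells. Of all probe sets, 0.329% were lower in fast C6SPGFP cells, and 3.29% and 8.29% were higher in C6SPGFP than in C6 among slow and fast cells. Ncam1 fell by 0.81 ± 0.14 in fast C6SPGFP cells (adjusted p = 0.0296). It was higher in C6SPGFP than in C6 among slow cells, by 1.13 ± 0.14 (adjusted p = 0.00323), and among fast cells, by 0.57 ± 0.14 (adjusted p = 0.0261). Its call in fast C6SPGFP cells ended without any 1 of the 4 C6SPGFP arrays (adjusted p up to 0.244), and that between fast cells ended without any 1 of the 4 fast arrays or the 2 C6SPGFP slow arrays (up to 0.165).

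Ptprz1, the receptor phosphatase, was at the bottom of the signal range in C6 fast cells. Its brighter probe set (U09357_at) had 293 and 424 in C6SPGFP fast, 299 and 272 in C6SPGFP slow, 1.69 and 1.225 in C6 fast and 69.1 and 100.2 in C6 slow cells. The C6 groups lay apart from each other and from both C6SPGFP groups, which overlapped. It fell by 3.27 ± 0.25 in fast C6 cells, 9.66-fold (adjusted p = 0.000124), with changes of -4.63 and -1.79 at pseudocounts of 2 and 32. It stood at 0.30 ± 0.25 in fast C6SPGFP cells (adjusted p = 0.76, 95% interval -0.26 to 0.86). The changes differed by 3.57 ± 0.35 (adjusted p = 0.00077). The dimmer probe set (U04998_at) had 20.7 and 34.3, then 22.6 and 22.4 in C6SPGFP fast and slow cells, and 0.75 and 0.1625, then 12.6 and 7.4 in C6 fast and slow cells. Its change in C6, -1.08 ± 0.28, did not pass (adjusted p = 0.0601), and passed with a pseudocount of 2 (-2.26, adjusted p = 0.0144). No detection calls were used, so whether such dim signals exceed background is not known.

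Ptn, the pleiotrophin ligand of PTPRZ1, followed the set and not the speed. Its signals were 1044 and 1118 in C6SPGFP fast and 1042 and 829 in C6SPGFP slow cells, against 295 and 421 in C6 fast and 282 and 404 in C6 slow cells. Both C6SPGFP groups lay above both C6 groups, and fast and slow C6 cells overlapped. The fast minus slow change was 0.06 ± 0.23 in C6 (adjusted p = 0.933, 95% interval -0.46 to 0.58) and 0.22 ± 0.23 in C6SPGFP (adjusted p = 0.842, 95% interval -0.30 to 0.73). In C6SPGFP against C6 it was higher by 1.59 ± 0.23 among fast cells, 3.02-fold (adjusted p = 0.00203), and by 1.44 ± 0.23 among slow cells, 2.71-fold (adjusted p = 0.00903). Leaving out C6SPGFP slow replicate 1 ended the slow cell call (1.28, adjusted p = 0.0701). Among fast cells 8.29% of all probe sets were higher in C6SPGFP than in C6. Of 6 other tested genes around pleiotrophin and PTPRZ1, the kinase Fyn was called, higher in C6SPGFP than in C6 fast cells by 0.84 ± 0.17 (adjusted p = 0.012). That call ended without C6SPGFP fast replicate 1 or 2 or C6 fast replicate 1 (adjusted p up to 0.0726).

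Aatk, a membrane-anchored kinase of the lemur tail kinase family that is abundant in nervous tissue, gave the largest contrasts of the 18 probe sets in C6 and between fast cells. Its single probe set had 781 and 806 in C6SPGFP fast and 825 and 776 in C6SPGFP slow cells, against 2.975 and 2.65 in C6 fast and 264 and 254 in C6 slow cells. The C6SPGFP groups overlapped, and the C6 groups lay apart from them and from each other. It fell by 4.63 ± 0.15 in fast C6 cells, 24.7-fold (adjusted p = 1.38e-06), and the change was -5.76 with a pseudocount of 2 and -3.06 with 32. Its change in C6SPGFP was -0.01 ± 0.15 (adjusted p = 0.993, 95% interval -0.36 to 0.34). The difference of the changes, 4.61 ± 0.22, ranked 5 among all probe sets by p (adjusted p = 1.58e-05). The calls in C6, on the difference and between fast cells were kept under every alternative tried, the deposited scaling included. Of its family and partners, Cdk5 and its activator Cdk5r1 were tested, and neither passed in any comparison, with 1 unadjusted limma p under 0.05, for Cdk5r1 between slow cells (adjusted p = 0.1845).

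**Figure D2:**
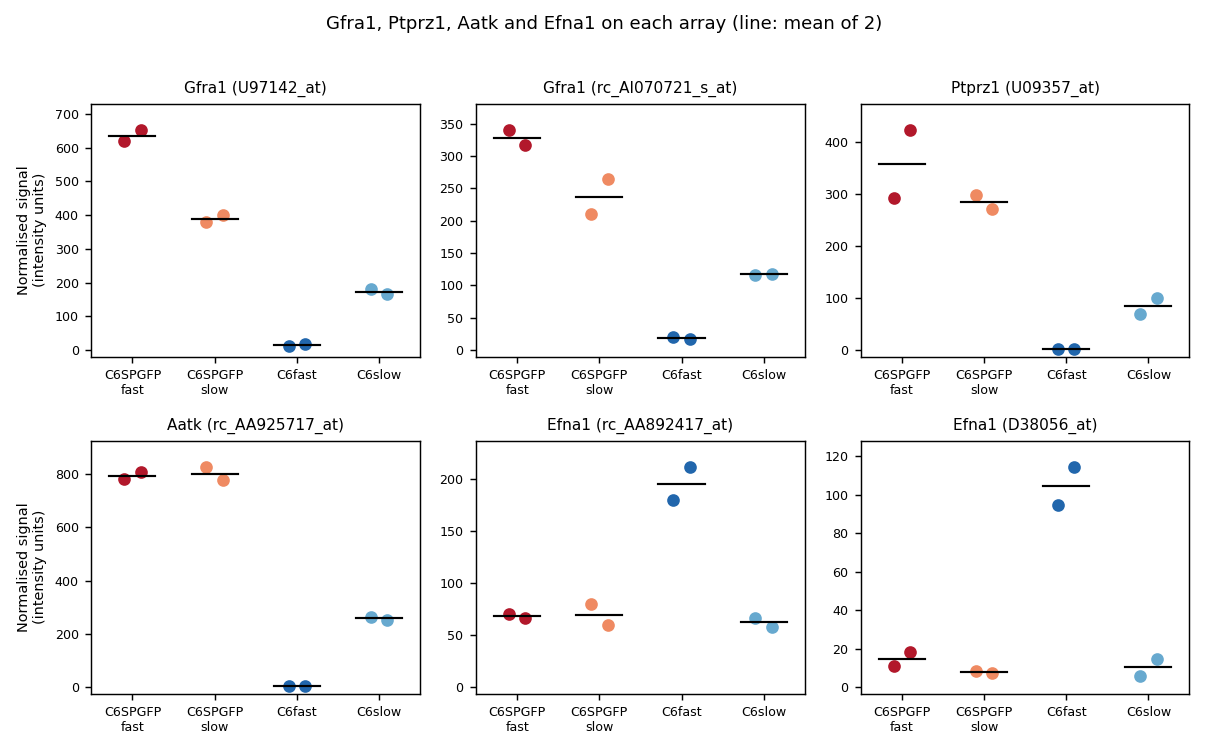
Normalised signal (vertical axes, intensity units, each panel with its own scale from 0) of Gfra1, Ptprz1, Aatk and Efna1 on each of the 8 arrays, by group. Points are arrays and lines the mean of 2. The C6 fast arrays sit near 0 for Gfra1, Ptprz1 and Aatk and above all other arrays for both Efna1 probe sets.

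Efna1, the ephrin-A1 ligand of EphA receptors, was raised in C6 fast cells. Its brighter probe set (rc_AA892417_at) had 70.7 and 66.4 in C6SPGFP fast, 79.85 and 59.4 in C6SPGFP slow, 179.9 and 212 in C6 fast and 66.8 and 57.8 in C6 slow cells. The other (D38056_at) had 10.8 and 18.03, then 8.375 and 7.275 in C6SPGFP fast and slow cells, and 94.7 and 114, then 6.06 and 14.4 in C6 fast and slow cells. On both, the C6 fast arrays lay above the other 6. Among those the groups overlapped, except that on D38056_at the C6SPGFP fast arrays lay above the C6SPGFP slow arrays. It rose by 1.53 ± 0.21 and 2.66 ± 0.29 in fast C6 cells, 2.89-fold and 6.32-fold (adjusted p = 0.00258 and 0.000898). In C6SPGFP the changes were -0.01 ± 0.21 and 0.48 ± 0.29 (adjusted p = 0.997 and 0.647). The difference between the sets was -1.54 ± 0.29 and -2.18 ± 0.42 (adjusted p = 0.0243 and 0.0249). The difference lost its call for the brighter probe set without C6SPGFP fast replicate 1 or 2, C6SPGFP slow replicate 1, C6 fast replicate 2 or C6 slow replicate 2 (adjusted p from 0.0594 to 0.102). For D38056_at it lost it without any array but C6 slow replicate 2 (0.0524 to 0.0976) and with a pseudocount of 2 (0.0582).

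Ephb3, a receptor of ephrin-B ligands, had 31.95 and 22.6 in C6SPGFP fast, 33.1 and 35.1 in C6SPGFP slow, 48.2 and 48.8 in C6 fast and 17.7 and 27.2 in C6 slow cells. The C6 fast arrays were the highest, but the change of 0.91 ± 0.24 did not pass (adjusted p = 0.0653), nor did that of -0.27 ± 0.24 in C6SPGFP (adjusted p = 0.793). Of the 21 Eph and ephrin genes listed, 9 were measured and 6 tested. Of the 4 besides Efna1 and Ephb3 none was called in any of the 5 comparisons, and 1 had an unadjusted p under 0.05, in C6 (limma). This was Efnb1, a ligand of EphB receptors, with 138 and 76.7 in C6SPGFP fast, 34.5 and 40.2 in C6SPGFP slow, 109.6 and 207 in C6 fast and 9.225 and 79.4 in C6 slow cells. It is named after its values were seen, and its change in C6 was 2.03 ± 0.66 (adjusted p = 0.122).

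Pdgfra, the receptor of oligodendrocyte progenitors, was higher in the C6SPGFP set. Its brightest probe set (rc_AI232379_at) had 930.2 and 919 in C6SPGFP fast and 1141 and 1158.5 in C6SPGFP slow cells, against 326 and 386 in C6 fast and 378 and 542 in C6 slow cells. Each C6SPGFP array lay above each C6 array. It was higher in C6SPGFP by 1.36 ± 0.18 among fast cells, 2.57-fold (adjusted p = 0.00146), and by 1.33 ± 0.18 among slow cells, 2.52-fold (adjusted p = 0.00509). Leaving out C6SPGFP slow replicate 2 ended the slow cell call (1.32, adjusted p = 0.0531). The fast minus slow changes were -0.34 ± 0.18 in C6 and -0.31 ± 0.18 in C6SPGFP, and neither passed (adjusted p = 0.361 and 0.634).

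Other probe sets of Pdgfra pointed the same way between the sets without passing. Z14118cds_g_at stood at 0.69 ± 0.36 among fast and 1.05 ± 0.36 among slow cells (adjusted p = 0.256 and 0.136). Z14118cds_at stood at 0.73 ± 0.30 and 0.99 ± 0.30 (adjusted p = 0.147 and 0.0946). Both are named for the same sequence and are not independent of each other. Its remaining probe set, rc_AI137657_at, lay below the filter.

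The PDGF ligands gave 1 called change between fast and slow C6 cells, where 3.96% of all probe sets were lower. In C6SPGFP against C6, 8.29% of all probe sets were higher among fast cells and 3.29% among slow cells. Pdgfa, the ligand that binds PDGFRα, had 269.7 and 242 in C6SPGFP fast, 361 and 384 in C6SPGFP slow, 139.6 and 138 in C6 fast and 275 and 416 in C6 slow cells. The C6 fast arrays were the lowest. It fell by 1.24 ± 0.21 in fast C6 cells (adjusted p = 0.00819), a call that ended without C6 fast replicate 2 (adjusted p = 0.0503). It was higher in C6SPGFP than in C6 fast cells by 0.84 ± 0.21 (adjusted p = 0.0265), which ended without any 1 of the 4 fast arrays or C6SPGFP slow replicate 1 (adjusted p up to 0.137). Pdgfb was higher in C6SPGFP than in C6 slow cells, at 35.8 ± 10.1 against 8.15 ± 0.318 (SD, n = 2), by 1.42 ± 0.30 (adjusted p = 0.031). That call ended without any 1 of the 4 slow arrays (adjusted p up to 0.174).

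Egfr, the EGF receptor, was dim and scattered, with 14.8 and 32.2 in C6SPGFP fast, 12.7 and 4.93 in C6SPGFP slow, 27.5 and 33.6 in C6 fast and 8.85 and 25.9 in C6 slow cells. Fast minus slow changes were 0.69 ± 0.42 in C6 (adjusted p = 0.44, 95% interval -0.27 to 1.64) and 0.89 ± 0.42 in C6SPGFP (adjusted p = 0.548, 95% interval -0.06 to 1.84). Fast arrays lay above slow arrays in both sets, but the intervals do not set the changes apart from 0.

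Errfi1, the inhibitor of the EGF receptor, gave probe sets that disagreed. X07266cds_s_at had 20.9 and 21.9 in C6SPGFP fast and 108 and 71.9 in C6SPGFP slow cells, against 74.4 and 120.3 in C6 fast and 82.9 and 125 in C6 slow cells. The C6SPGFP fast arrays were well below the other 6, which overlapped. It fell by 1.71 ± 0.30 in fast C6SPGFP cells, 3.28-fold (adjusted p = 0.0319), and was at -0.10 ± 0.30 in fast C6 cells (adjusted p = 0.916). The difference between the sets, -1.62 ± 0.42, did not pass (adjusted p = 0.09). The call in C6SPGFP ended without any 1 of the 4 C6SPGFP arrays (adjusted p from 0.105 to 0.202), with the arrays set to a common trimmed mean (0.0525), with a pseudocount of 32 (0.0581), without the filter (0.0652) and without the trend (0.0509). Among fast cells it was lower in C6SPGFP than in C6 by -1.81 ± 0.30 on the log2 scale (adjusted p = 0.00453).

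The brighter Errfi1 probe set (rc_AI169756_s_at) had 89.1 and 137 in C6SPGFP fast, 145 and 163 in C6SPGFP slow, 134 and 107 in C6 fast and 167 and 172 in C6 slow cells. Fast arrays lay below slow arrays in both sets, with changes of -0.45 ± 0.23 in C6SPGFP and -0.47 ± 0.23 in C6 that did not pass (adjusted p = 0.575 and 0.314). Over the 8 arrays Pearson's r between these 2 Errfi1 probe sets was 0.489. The 2 probe sets of Gfra1 had 0.992 and those of Ptprz1 0.972.

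Of 7 other tested genes of the EGF family, 1 was called in fast against slow C6SPGFP cells, where 0.329% of all probe sets were lower. The same gene was called between slow cells, where 3.29% of all were higher in C6SPGFP. This was Hbegf, a membrane-bound ligand of the EGF receptor, which fell by 1.06 ± 0.17 in fast C6SPGFP cells (adjusted p = 0.0227). It had 185 and 174 in C6SPGFP fast and 398 and 369 in C6SPGFP slow cells, and 182 and 155 in C6 fast and 214 and 254 in C6 slow cells. The call ended without any 1 of the 4 C6SPGFP arrays (adjusted p up to 0.188). Among slow cells it was higher in C6SPGFP than in C6 by 0.70 ± 0.17 (adjusted p = 0.0478), a call that ended without any 1 of the 4 slow or the 2 C6SPGFP fast arrays (adjusted p up to 0.231). Among fast cells, 2 of the 7 were higher in C6SPGFP than in C6, as were 8.29% of all probe sets. Erbb3, a receptor for neuregulins, was higher there (237 ± 21.2 against 61.4 ± 25.4, SD, n = 2), by 1.87 ± 0.42 (adjusted p = 0.0194). Erbb2, its partner receptor, was higher too (134 ± 18.8 against 45.0 ± 35.1), by 1.59 ± 0.41 (adjusted p = 0.033). The Erbb3 call ended without C6SPGFP fast replicate 1 or 2 or C6 fast replicate 1 (adjusted p up to 0.117). The Erbb2 call ended without any 1 of the 4 C6SPGFP arrays or C6 fast replicate 2 (up to 0.131).

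Fgfr1, a receptor for fibroblast growth factors, had no called change on any of its 3 probe sets in the main fit. S54008_i_at had 401.3 and 401.1 in C6SPGFP fast, 226 and 237 in C6SPGFP slow, 352 and 502 in C6 fast and 276 and 403 in C6 slow cells. The C6SPGFP slow arrays were the lowest, and the fast minus slow change there was 0.77 ± 0.22 (adjusted p = 0.225), against 0.33 ± 0.22 in C6 (adjusted p = 0.505). In a limma fit to the C6SPGFP groups alone the change in C6SPGFP passed (adjusted p = 0.049). D12498_s_at ranged from 277 to 659 within the C6 slow group alone, with changes of 0.68 ± 0.38 in C6SPGFP and 0.18 ± 0.38 in C6 (adjusted p = 0.628 and 0.867). AF000144_at had signals from 4.36 to 18.7 and changes of 0.33 ± 0.42 and 0.27 ± 0.42 (adjusted p = 0.872 and 0.814). This dim probe set did not follow the others, with Pearson's r of 0.023 with S54008_i_at and -0.475 with D12498_s_at over the arrays. Between S54008_i_at and D12498_s_at r was 0.831. None of 7 other tested genes of the FGF family was called in any comparison, with an unadjusted limma p under 0.05 for 1 gene between slow cells and another gene between fast cells, both named after their values were seen: Fgfr4 (adjusted p = 0.206) and Fgf2 (adjusted p = 0.1347).

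**Figure D3:**
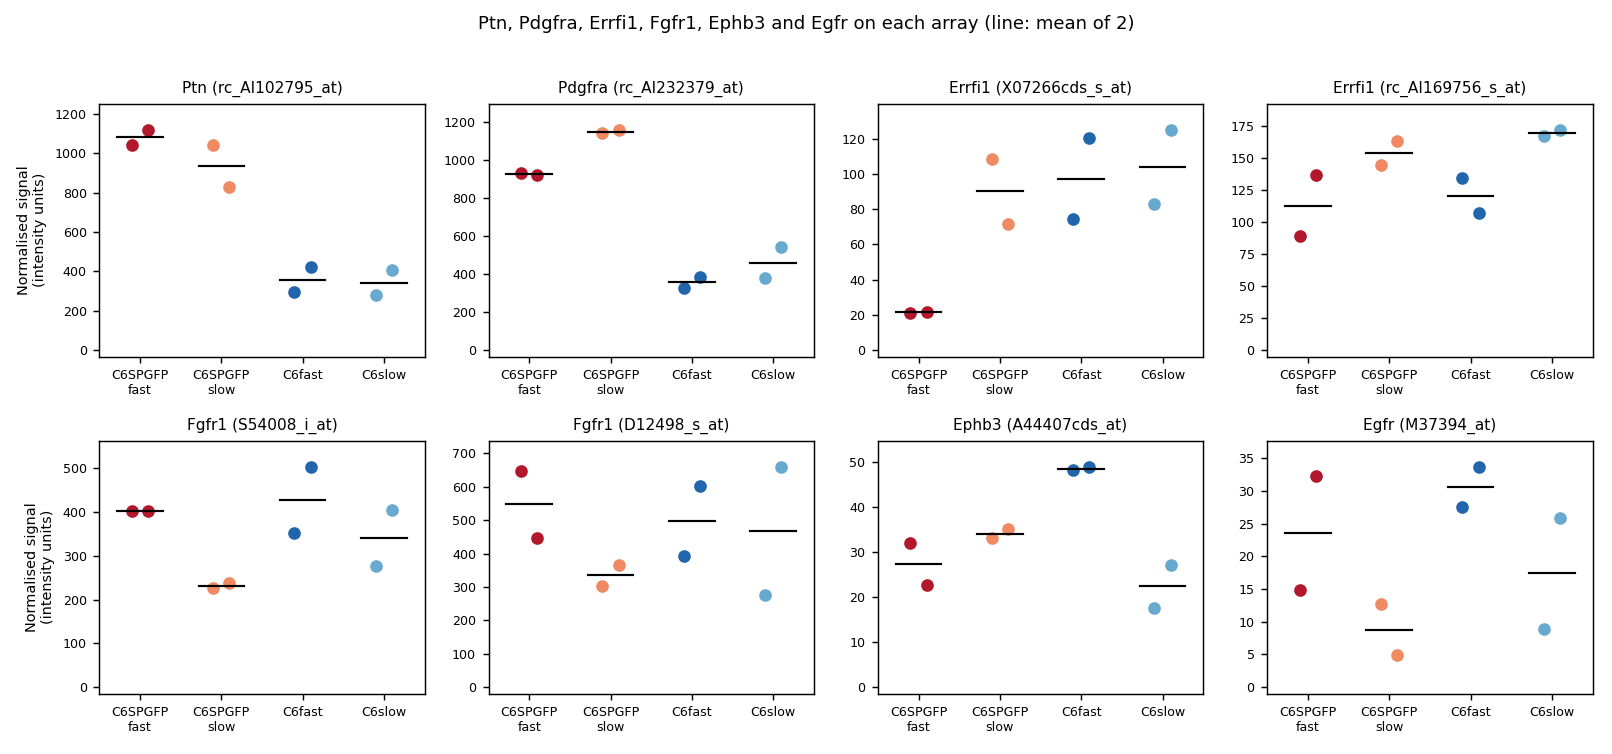
Normalised signal (vertical axes, intensity units, each panel with its own scale from 0) of Ptn, Pdgfra, Errfi1, Fgfr1, Ephb3 and Egfr on each of the 8 arrays, by group. Points are arrays and lines the mean of 2. Ptn and Pdgfra are high on all 4 C6SPGFP arrays, and X07266cds_s_at of Errfi1 is low on the 2 C6SPGFP fast arrays.

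Between the sets, 5 of the 10 genes had a probe set called higher in C6SPGFP than in C6 in both fast and slow cells: Gfra1, Ptprz1, Ptn, Pdgfra and Aatk. Among fast cells 10 of 18 probe sets were called, 7 higher and 3 lower in C6SPGFP (55.6%), against 15.6% of all probe sets (8.29% higher and 7.3% lower). Among slow cells 6 of 18 were called, all higher (33.3%), against 6.34% of all (3.29% higher and 3.05% lower), and none was lower, with 1 at an unadjusted limma p under 0.05 and a negative change. These comparisons share no array with each other, but each shares its arrays with the fast against slow comparisons, so the values are given side by side. With the deposited scaling the counts were 5 among fast and 0 among slow cells. Here too the genes were chosen with earlier results known, so the higher shares are no test of them as a group.

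Among fast cells Aatk was higher in C6SPGFP by 6.21 ± 0.15 on the log2 scale, 74.1-fold (adjusted p = 1.42e-07). Ptprz1 was higher by 5.25 ± 0.25, 38.1-fold, on U09357_at (adjusted p = 5.23e-06) and by 2.04 ± 0.28 on U04998_at (adjusted p = 0.00169). Gfra1 was higher by 4.79 ± 0.20 and 3.66 ± 0.19, 27.7-fold and 12.6-fold (adjusted p = 2.73e-06 and 1.08e-05). The C6 fast signals of Aatk and Ptprz1 lay below the pseudocount, which therefore sets the size of their folds. With pseudocounts of 2 and 32 the log2 difference was 7.37 and 4.57 for Aatk, 6.68 and 3.52 for Ptprz1 (U09357_at) and 5.22 and 3.81 for Gfra1 (U97142_at). Efna1 was lower in C6SPGFP fast cells, by -1.41 ± 0.21 and -2.34 ± 0.29 on the log2 scale (adjusted p = 0.00238 and 0.00114), the reverse of the order for Gfra1.

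Among slow cells the differences were smaller. Aatk was higher in C6SPGFP by 1.60 ± 0.15, 3.03-fold (adjusted p = 0.00117), and Ptprz1 (U09357_at) by 1.68 ± 0.25, 3.21-fold (adjusted p = 0.0064). Gfra1 was higher by 1.13 ± 0.20 and 0.97 ± 0.19, 2.19-fold and 1.95-fold (adjusted p = 0.0133 and 0.0222). Leaving out either C6SPGFP slow array ended the Ptprz1 call (adjusted p = 0.0543 and 0.05435). Leaving out any 1 of the 4 slow arrays ended both Gfra1 calls (adjusted p from 0.0525 to 0.181), and a fit to the slow groups alone ended that of rc_AI070721_s_at (0.0539). Efna1 did not differ in its test among slow cells, at 0.13 ± 0.21 and -0.17 ± 0.29 (adjusted p = 0.773 and 0.802).

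**Figure D4:**
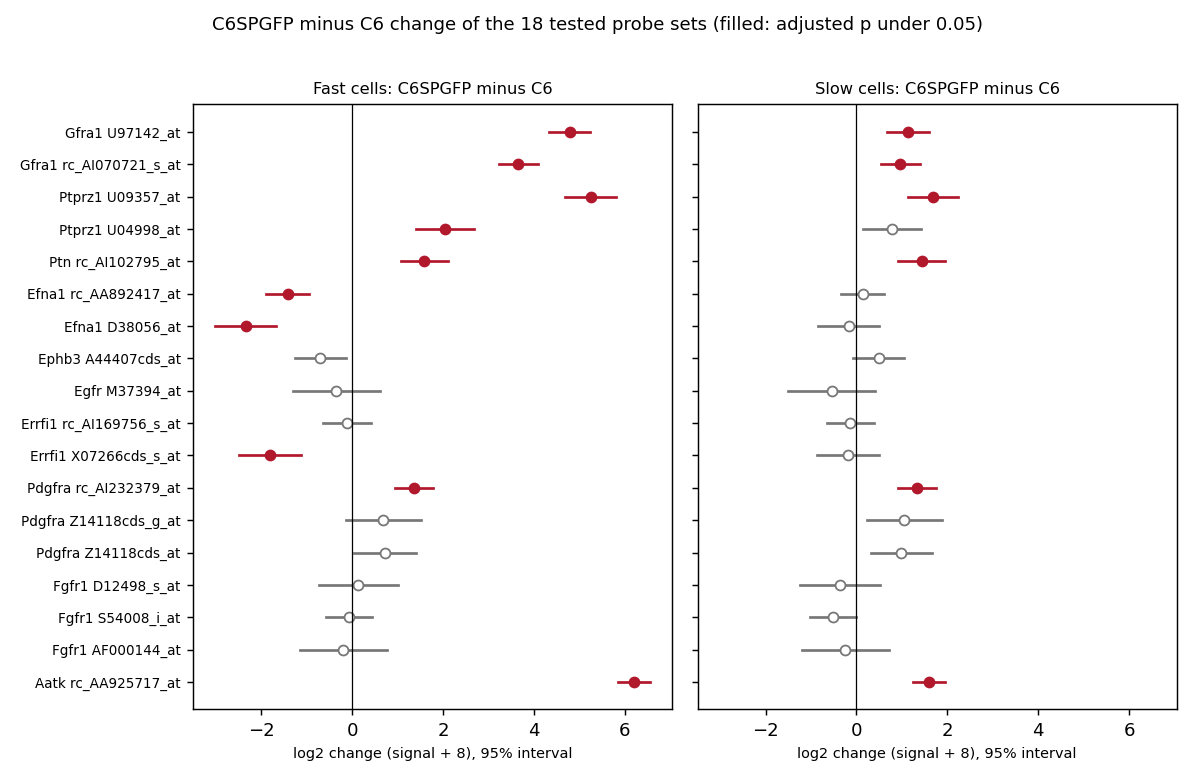
Change from C6 to C6SPGFP (horizontal axis, log2 of signal plus 8) of the 18 tested probe sets, among fast cells on the left and slow cells on the right. Points are limma estimates, lines their 95% intervals, and filled red points have an adjusted p under 0.05. Gfra1, Ptprz1, Ptn, Pdgfra and Aatk lie above 0 on both sides, and Efna1 lies below 0 among fast cells.

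The order of group levels differed between these genes. Gfra1, Ptprz1 (U09357_at) and Aatk ran from the C6SPGFP groups through C6 slow to C6 fast. Their C6SPGFP groups did not differ in the test, and the contrasts of C6SPGFP slow with C6 slow and of C6 slow with C6 fast were called. For Aatk the group next above C6 slow was C6SPGFP fast, and that contrast was not fitted. For Ptn and Pdgfra (rc_AI232379_at) both C6SPGFP groups stood above both C6 groups, and within a set the neighbours did not differ in the test. For Efna1, C6 fast stood alone above the other groups, among which no fitted contrast was called.

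Of 12 tested genes that feed back on the MAP kinase pathway or are its targets, 3 were lower, 1 was higher and 8 were not called in fast against slow C6 cells, where 3.96% of all probe sets were lower and 2.69% higher. At an unadjusted limma p under 0.05, 3 were lower and 3 higher. The median change was -0.23 against 0.01 over all probe sets. Spry1, a feedback inhibitor of receptor tyrosine kinases, had 449 and 352 in C6SPGFP fast, 619 and 477 in C6SPGFP slow, 18.2 and 71.0 in C6 fast and 178 and 211 in C6 slow cells. It fell by 2.15 ± 0.44 in fast C6 cells (adjusted p = 0.02095), which ended without C6 slow replicate 1 or 2 (adjusted p up to 0.0881), and among fast cells was higher in C6SPGFP by 3.16 ± 0.44 (adjusted p = 0.00175).

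Dusp6, a phosphatase of the ERK kinases, had 974 and 999 in C6SPGFP fast, 836 and 869 in C6SPGFP slow, 239.7 and 415 in C6 fast and 920.2 and 622 in C6 slow cells. It fell by 1.24 ± 0.26 in fast C6 cells (adjusted p = 0.0239), a call that ended without C6 fast replicate 1, C6 slow replicate 1 or either C6SPGFP slow array (adjusted p up to 0.131). Among fast cells it was higher in C6SPGFP by 1.62 ± 0.26 (adjusted p = 0.00376). Ier3, an immediate early gene, fell by 1.28 ± 0.16 in fast C6 cells (adjusted p = 0.00199) and was lower in C6SPGFP than in C6 slow cells, at 301 ± 32.7 against 769 ± 111 (SD, n = 2), by -1.33 ± 0.16 (adjusted p = 0.00326). Its fast minus slow changes differed between the sets by 1.67 ± 0.23 (adjusted p = 0.00576).

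Egr1, an immediate early transcription factor, ran the other way from Spry1 and Dusp6 in C6. It averaged 322 ± 39.7 in C6SPGFP fast, 512 ± 43.4 in C6SPGFP slow, 288 ± 3.74 in C6 fast and 164 ± 11.8 in C6 slow cells (SD, n = 2). It rose by 0.78 ± 0.16 in fast C6 cells (adjusted p = 0.0226), a call that ended without any 1 of the 4 C6 arrays or C6SPGFP slow replicate 1 (adjusted p up to 0.086). Among slow cells it was higher in C6SPGFP by 1.60 ± 0.16 (adjusted p = 0.00132). Its changes differed between the sets by -1.45 ± 0.23 (adjusted p = 0.0111), which ended without C6SPGFP slow replicate 1 or C6SPGFP fast replicate 1 (adjusted p up to 0.0594). Fos was higher in C6SPGFP slow than in C6 slow cells by 0.97 ± 0.21 (adjusted p = 0.0311), and Fosl1 was lower in C6SPGFP fast than in C6 fast cells by -0.79 ± 0.19 (adjusted p = 0.0239). The Fos call ended without C6SPGFP slow replicate 1 or 2, C6SPGFP fast replicate 1 or 2 or C6 slow replicate 1 (adjusted p up to 0.192), and the Fosl1 call without C6SPGFP fast replicate 1 or 2 or C6 fast replicate 1 (up to 0.144).

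Of 15 tested genes from Ras to Akt, 1 was called in fast C6 cells, a share near the 6.66% of all probe sets. This was Rasa1, a Ras GTPase activator, which fell by 0.92 ± 0.22 (adjusted p = 0.0407) and lost the call without any array but C6 slow replicate 2 (adjusted p up to 0.183). The adaptor Grb2 was higher in C6SPGFP than in C6 fast cells by 0.59 ± 0.16 (adjusted p = 0.0374), which ended without any 1 of the 4 C6SPGFP arrays or C6 fast replicate 1 (adjusted p up to 0.169). Across the 9 lists, 61 genes besides the 10 were tested, of which 1 was higher and 5 were lower in fast C6 cells (9.84%, against 6.66% of all probe sets) and 2 were lower in fast C6SPGFP cells (3.28%, against 1.39%). Between the sets 8 were higher and 1 lower among fast cells, 14.8% against 15.6% of all probe sets, which is near the background. Among slow cells 5 were higher and 1 lower (9.84%, against 6.34%). In a fit to the C6 groups alone, the fast against slow calls of Pdgfa, Spry1, Dusp6, Rasa1 and Egr1 ended (adjusted p from 0.06196 to 0.1298). In fits to only the groups compared, those of Erbb2, Grb2, Ncam1 and Fosl1 between fast cells and of Fos and Hbegf between slow cells ended too. Without the trend, the calls of Rasa1 and Dusp6 in C6 and of Ncam1 in C6SPGFP ended. So did those of Ncam1 and Grb2 between fast cells and of Hbegf between slow cells. Without the filter, those of Rasa1 in C6, Pdgfb between slow cells and Erbb2 between fast cells ended. With the deposited scaling Spry1 between fast cells and Erbb3 were the list calls kept, while the signs of Ncam1 and Hbegf in fast C6SPGFP cells and of Fosl1 between fast cells turned.

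The summed signals of glial and neuronal marker lists were lowest in C6 fast cells, as were Gfra1, Ptprz1 and Aatk, but their members did not all follow. The summed signal of 5 oligodendroglial markers was 1203 to 1225 in C6SPGFP fast, 1861.5 to 1971 in C6SPGFP slow, 187 to 207 in C6 fast and 791 to 1030.2 in C6 slow cells. For 7 astroglial markers it was 1962 to 2046, 1870.3 to 2074, 441 to 679.8 and 1125 to 1461. For 4 glial progenitor or glioma markers it was 5557 to 5664, 5542 to 5548, 3314 to 3551 and 4374 to 4592. Cspg4 among them changed little, at means of 198, 224, 183 and 209. Sox10, a defining oligodendroglial marker, averaged 422, 551, 1.56 and 304 in that order of groups, and Cnp averaged 651, 1245, 89.0 and 451. Mag, with 100.1, 87.8, 68.4 and 107, did not follow them. Neither did Mbp, with 9.85, 6.41, 12.0 and 13.75, nor Mog, with 30.8, 26.0, 26.1 and 34.65. Sox10 and Cnp made up most of the oligodendroglial sum in the C6SPGFP and C6 slow groups. Unlike Gfra1, this sum was higher in C6SPGFP slow than in C6SPGFP fast cells. Among astroglial markers S100b and Aldoc made up most of the sum in the C6SPGFP groups, with S100b at 1261, 1226, 65.9 and 408. Glul ran the other way between the sets, at 161, 179, 263 and 478, and Slc1a2 was lowest in C6SPGFP fast cells, at 24.3, 37.5, 36.5 and 50.8. Their part in the results was not tested, and fewer cells of a type and less RNA per cell cannot be told apart in bulk samples. For 6 neuronal markers the sums were 185 to 190.1, 202 to 247, 57.4 to 84.8 and 111 to 132. The sums of 6 microglial and haematopoietic markers lay between 71.9 and 119 on all arrays, with Itgam and Cd74 at means of at most 4.26, and those of 5 endothelial and mural markers between 183 and 273.

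For each gene with a call, its probe set with the highest mean signal was compared with all others over the 8 arrays, which share the groups and the normalisation. The profile of Aatk was most like those of Calcb (r = 0.998) and Add3 (r = 0.997), with 89 probe sets above an r of 0.95. Gfra1 was nearest to S100b (0.99) and Add3 (0.99), and Ptprz1 to Add3 (0.993) and Ggcx (0.993). Pdgfra was nearest to Gas7 (0.993) and Bcan (0.99). Efna1 was nearest to Gdf11 (0.984) and Lsamp (0.983), Ptn to Psap (0.968) and Pllp (0.965), and Errfi1 to Hdac2 (0.928) and Syk (0.928), with no probe set above 0.95. For Errfi1 this profile is that of rc_AI169756_s_at, which had no call, and not of X07266cds_s_at.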

How the data were processed

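The authors deposited 1 intensity per probe set and array on a linear scale (0 to 14287.9). Neither labels nor file headers name the software, and the trimmed means point to each array being scaled alone. The 8799 probe sets, 59 of them controls, were quantile normalised over the 8 arrays, and log2 of signal plus a pseudocount of 8 was fitted with 4 group means in limma 3.58.1 (R 4.3.3; lmFit, eBayes with a trend, two-sided). Tested were 6684 probe sets with a mean signal of at least 8, with Benjamini-Hochberg adjustment over all of them. The fit left 4 residual and 4.49 prior degrees of freedom, and the median SE of a comparison was 0.241 (0.341 for the difference). The code was tested on simulated data. Probe sets were named through GEO's annotation of the array (7018 had 1 symbol, 308 several and 1473 none), and 6994 were brought to current symbols by Entrez identifier. The genes, lists and settings were chosen with earlier results of these data known.

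All probe sets of the 10 genes are described. From 9 lists of related genes, each gene by the probe set with the highest mean signal, the called genes are named, up to 3 per list and direction. For genes with a call, the 2 genes with the highest Pearson r over the arrays are named. Alternatives were the scaling, the pseudocount, the filter, the trend, fitting only the groups compared, the replicate number as a block, and leaving out each array. A position in the genome was not used for any probe set. The replicate numbers in the titles were not taken to pair the arrays. The correlation of same-numbered deviations from the group means was highest between C6 fast and C6 slow cells, at 0.266. Over the remaining pairs of groups it lay between -0.127 and 0.104. A pairing within C6 alone was not modelled.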

Additional observations from a re-analysis of the deposited data

Results flagged for a closer look

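The change from slow to fast cells differed between C6SPGFP and C6 on 6 probe sets of 4 genes, by the test of the difference itself. It was higher in C6SPGFP for Aatk (4.61 ± 0.22, SE, log2, adjusted p = 1.58e-05), for Gfra1 on U97142_at (3.66 ± 0.28, adjusted p = 0.00022) and rc_AI070721_s_at (2.69 ± 0.27, adjusted p = 0.000909), and for Ptprz1 on U09357_at (3.57 ± 0.35, adjusted p = 0.00077). It was lower for Efna1 on rc_AA892417_at (-1.54 ± 0.29, adjusted p = 0.0243) and D38056_at (-2.18 ± 0.42, adjusted p = 0.0249). For each of these probe sets the change was called in C6 and not in C6SPGFP. The groups were too small for a search for single outlying arrays.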

How the results depend on the processing

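With 2 arrays per group, of which C6SPGFP fast replicate 1 was deposited on its own scale, keeping the deposited scaling mattered most. With the deposited scaling the probe sets called numbered 23 in fast against slow C6 cells, 21 in fast against slow C6SPGFP cells, 25 for the difference, 1 between the slow and 186 between the fast groups. In the main setting they numbered 445, 93, 255, 424 and 1042. Of the 18 probe sets described, 1, 0, 1, 0 and 5 were then called in that order, against 6, 1, 6, 6 and 10. The median of all probe sets moved to 1.03 in C6SPGFP, 1.07 for the difference and 1.10 between fast groups. The share of calls that were higher moved to 52.2% (from 40.4%), 100% (76.3%), 96% (71%), 100% (51.9%) and 93.5% (53.2%). Signs turned for Hbegf (0.0723) and Ncam1 (0.38) in fast against slow C6SPGFP cells and for Fosl1 between fast groups (0.41). With the arrays set to a common trimmed mean instead, 452, 95, 268, 469 and 1144 probe sets were called in the same order of comparisons. Of the 18 described, 6, 0, 6, 6 and 10 were called.

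The 1 call in C6SPGFP, on Errfi1, became 0 with a common trimmed mean, a pseudocount of 32, no filter or no trend, and 2 were called in a fit to the groups compared. That fit called 230 probe sets in C6 and 270 between slow groups. Of 78 counts under alternatives that kept all arrays, 61 were within 1.5 times the main count. Leaving out each array in turn gave 279 to 446, 21 to 107, 123 to 273, 95 to 421 and 509 to 1127 probe sets called. Of those described it gave 6 to 6, 0 to 1, 4 to 5, 2 to 6 and 10 to 11. Without C6SPGFP fast replicate 1 they numbered 6, 0, 4, 6 and 10.

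The replicate numbers were not taken to pair the arrays in the main fit. The block fit used a single replicate term over all 4 groups, so it could not take up a pairing present in C6 alone. With the replicate number as a block, 424, 87, 235, 392 and 989 probe sets were called and 6, 1, 6, 6 and 10 of those described. The calls of Rasa1 in C6 (adjusted p = 0.057) and Hbegf between slow groups (0.0649) were not made under it.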

Other observations

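Of the 20 probe sets, 2 lay below the filter and entered no comparison. M23572_at of Errfi1 had 2.06 and 2.36 in C6SPGFP fast, 1.69 and 2.66 in C6SPGFP slow, 2.79 and 2.125 in C6 fast and 1.4 and 3.64 in C6 slow cells. rc_AI137657_at of Pdgfra had 1.91 and 1.14, 1.25 and 2.325, 0.75 and 2.29, and 0.763 and 1.09 in the same order.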
